A study of Mus musculus with 6 samples.

Results

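Freshly sorted natural regulatory T cells (nTregs) were compared with naive CD4 T cells in 4 of the 6 total RNA libraries of the series, 2 libraries for each population. The members of the comparison were chosen by sort and treatment label alone: the 2 fresh nTreg libraries, 1 from YAP cKO and 1 from wild type (WT) mice, against the 2 naive libraries, 1 from each of the same genotypes. The 2 stimulated nTreg libraries of the series were not part of it. All mice were C57BL/6, and cells came from lymph nodes and spleens, with 322 ng of RNA per library. The nTregs were sorted as CD4+ CD25 HIGH cells with a further surface marker either present or absent, and the naive cells as CD4+ CD25- cells positive for that marker, so the gates differ in it as well as in CD25. YAP cKO mice carry YAP flox/flox alleles and CD4-Cre, which recombines during thymocyte development and so also in T cells other than those sorted here. WT mice are labelled wildtype with no mention of Cre. The ages, the sex and the number of mice behind a library are not given in the sources used here. With 1 library per genotype and population, the genotype served as the pairing, and values of both pairs are given.

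Regulatory T cells hold back the responses of other lymphocytes. Their lineage factor is Foxp3, they depend on interleukin-2 (IL-2) made by other cells, which they bind with a receptor that includes CD25, and they act through surface molecules such as CTLA-4 and secreted factors such as IL-10 and TGF-beta. Naive CD4 T cells are quiescent, recirculate through lymph nodes with the help of CCR7, and are maintained by the factors TCF-1 and LEF-1 and by IL-7.

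The values are FPKM, that is, fragments divided by transcript length and scaled for the size of the library, so levels can be set side by side between genes. Median ratio factors of the 4 libraries, computed from the deposited values, ran from 0.987 to 1.016. Between 10646 and 10667 genes reached 1 FPKM in the fresh nTreg libraries, against 10210 to 10231 in the naive libraries. A single fragment on a transcript of 1 kb was worth 0.112 to 0.118 FPKM in fresh nTregs and 0.117 to 0.139 FPKM in naive cells, as read from the steps between low values, of which 78.5% to 83.2% lay within 0.15 of a whole fragment. Short features (small RNA genes and antigen receptor segments) held 36.2% to 36.6% of the FPKM sum in all 4 libraries. The FPKM sum itself was lower in fresh nTregs (843887 in YAP cKO and 837179 in WT) than in naive cells (962865 in YAP cKO and 968967 in WT).

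Il2ra followed the gates. This gene, which encodes CD25 (mm10 chromosome 2, 11642792 to 11693194), was at 63.7 and 75.3 FPKM in YAP cKO and WT fresh nTregs, against 1.23 and 0.486 FPKM in YAP cKO and WT naive cells. Since CD25 was sorted on, this is a check and not a finding. Cd4 was at 177 and 178 FPKM in fresh nTregs against 213 and 220 FPKM in naive cells. The small difference of Cd4 passed the limma test described below, as lower in fresh nTregs, and the call was lost with equal FPKM sums and without the YAP cKO fresh nTreg library or either WT library. Yap1 was listed at 0 in all 4 libraries. On its transcript of 4171 nt, 3 fragments would give 0.0806 to 0.1 FPKM, so Yap1 gave no check of the genotype, and the columns carrying an abbreviation other than WT were read as YAP cKO by elimination. Here and below, values within a population are given with YAP cKO first and WT second.

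Across the transcriptome, 10782 genes were tested on the scale of log2(FPKM + 1) with limma, and a gene was called where its Benjamini-Hochberg adjusted p was under 0.05. The result was 2255 genes higher in fresh nTregs (20.9% of those tested) and 2491 lower (23.1%). Counts of called members in the gene lists below stand against these shares, and no list was tested as a set. Calls of at least 2-fold were mostly rises, with 759 genes higher (7.04% of those tested) and 168 lower (1.56%). The difference had the same sign in both genotypes for 82.3% of all genes tested. Among called genes the sign agrees nearly by construction, since the gap between the genotypes is the residual of the fit. The median gene differed by -0.03 on the log2 scale. When libraries were scaled to equal FPKM sums, the median gene moved to 0.15 and the split to 3737 higher and 1160 lower, so small differences in either direction depend on the scaling. Of the called genes, 47.5% were higher as deposited and 76.3% with equal sums. Leaving out any 1 of the 4 libraries left 1046 to 1400 genes called higher and 787 to 1093 lower. Each p-value rests on the spread between 2 genotypes with 1 library each and not on the spread between mice. In bulk samples, a larger share of cells that express a gene and more RNA per cell cannot be told apart.

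**Figure D1:**
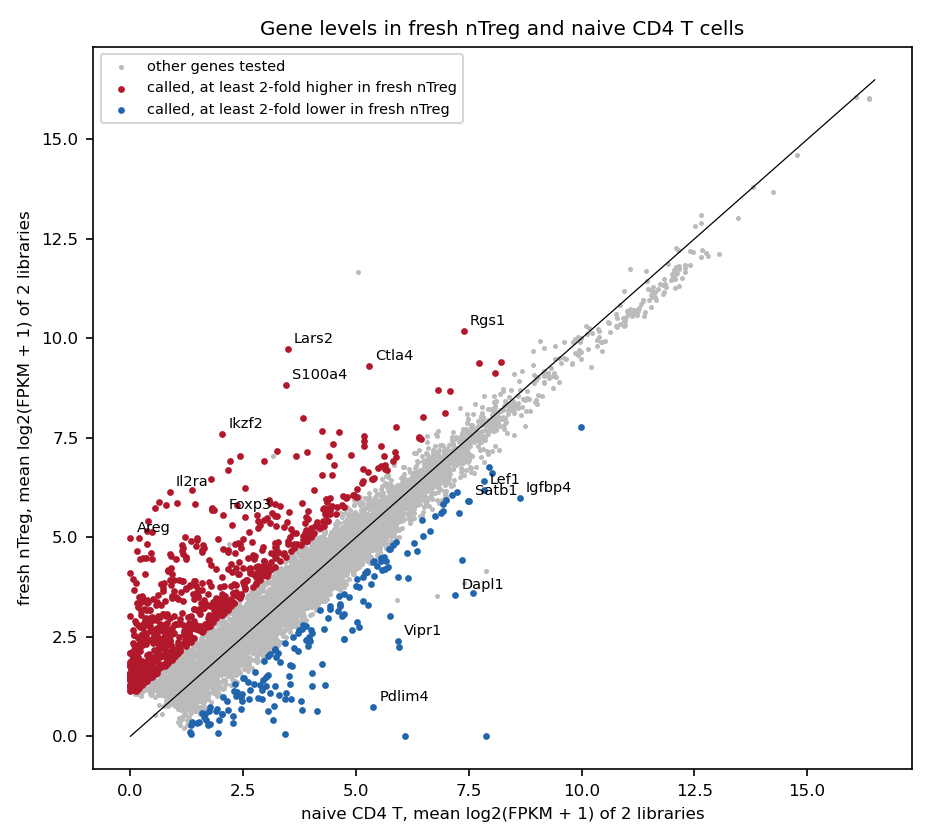
Mean log2(FPKM + 1) of the 2 fresh nTreg libraries (vertical axis) against the mean of the 2 naive libraries (horizontal axis) for the 10782 genes tested; the line marks equal levels. The 759 genes called and at least 2-fold higher in fresh nTregs lie above the line and the 168 called and at least 2-fold lower lie below it, with some genes of either kind named.

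Genes of Treg identity and suppression were higher throughout. All 34 tested members of this list were called higher and 33 of them by at least 2-fold, with a median log2 difference of 3.51, against -0.03 over all genes tested. The list holds genes known from Tregs, so its direction is a check of the sort rather than independent evidence. Foxp3 (chromosome X, 7579676 to 7595243) was at 45.9 and 46.6 FPKM in fresh nTregs, against 3.30 and 2.98 FPKM in naive cells. The log2 difference was 3.51 ± 0.09 (SE, with adjusted p = 3.31e-06). Foxp3 was thus not at 0 in the naive sort, where its values stood on about 108 and 82.2 fragments.

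The values of Foxp3 in the populations came from different transcripts. The RefSeq transcript that starts at position 7579669 in the GENCODE annotation of GRCm38 held 44.4 and 44.8 FPKM in fresh nTregs, against 0.435 and 0.000307 FPKM in naive cells. The transcript that starts 814 bases downstream, at 7580483, held 1.54 and 1.84 FPKM in fresh nTregs and 2.86 and 2.98 FPKM in naive cells. As shares, the upstream start held 96.7% and 96.0% of Foxp3 in fresh nTregs, and the downstream start 86.8% and 100% in naive cells. Such shares are estimates of a model that divides fragments between overlapping transcripts, and no test was made. Flicr, a long noncoding RNA known in mouse to modulate Foxp3 expression, lies on the same strand, and its GENCODE exon from 7577908 to 7581027 covers both starts. Flicr itself was called higher, at 14.3 and 14.2 FPKM in fresh nTregs against 1.09 and 1.10 FPKM in naive cells (log2 difference 2.87 ± 0.12; adjusted p = 1.51e-05), and how far its fragments enter the values of the Foxp3 transcripts cannot be told from FPKM. Flicr was picked after its values were seen.

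The sequences before the upstream Foxp3 start and the start of Areg (described with the cytokines) are shown because their transcripts differed widely between the populations. The sequence before the downstream Foxp3 start is shown beside them. Its transcript differed less, at 1.54 and 1.84 FPKM in fresh nTregs and 2.86 and 2.98 FPKM in naive cells. All are RefSeq promoter sequences of GRCm38.p6, plus strand. Capitals mark matches to TATAAA (the TATA box letters), TTCNNNGAA (the letters that STAT factors bind) or TGACGTCA (the cAMP response element), searched on both strands.
Foxp3 upstream start, chrX:7579639-7579668, the last 30 bases before the start: ctcggTATAAAagcaaagttgtttttgata
Foxp3 downstream start, chrX:7580233-7580482: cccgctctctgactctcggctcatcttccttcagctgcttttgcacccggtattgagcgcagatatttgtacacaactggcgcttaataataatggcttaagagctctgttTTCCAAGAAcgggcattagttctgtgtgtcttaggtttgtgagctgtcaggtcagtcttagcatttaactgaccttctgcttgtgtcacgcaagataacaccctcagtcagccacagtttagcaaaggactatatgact
Areg, chr5:91139349-91139598: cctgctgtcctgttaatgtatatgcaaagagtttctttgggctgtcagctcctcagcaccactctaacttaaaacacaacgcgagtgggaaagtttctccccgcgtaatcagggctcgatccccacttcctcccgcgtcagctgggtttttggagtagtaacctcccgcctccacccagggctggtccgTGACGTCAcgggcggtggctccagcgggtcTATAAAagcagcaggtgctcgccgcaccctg
The TATAAA match begins 25 bases before the upstream Foxp3 start, and the TTCNNNGAA match 139 bases before the downstream start. The 30 bases shown before the upstream start also lie in a GENCODE exon of another Foxp3 transcript, from 7579567 to 7579725, so they can be transcribed. Of 32817 RefSeq promoters searched over 250 bases, 12.4% held TATAAA, 7.01% held TTCNNNGAA and 1.55% held TGACGTCA. Each match thus describes the letters and is no evidence of a bound factor. The share for TATAAA is over 250 bases and the upstream Foxp3 stretch has 30, so they are not on the same length.

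**Figure D2:**
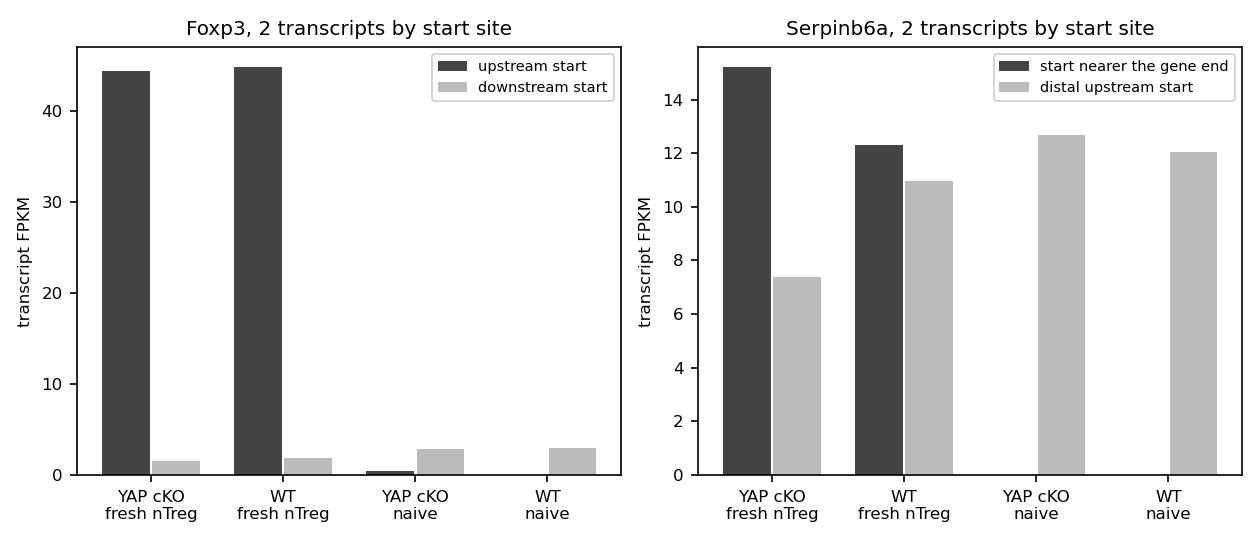
FPKM (vertical axes, from 0) of 2 transcripts each of Foxp3 and Serpinb6a in the 4 libraries, with dark and light bars for the start sites named in the legends. The upstream Foxp3 transcript stands at 44.4 and 44.8 FPKM in fresh nTregs and at under 0.5 FPKM in naive cells, and the Serpinb6a transcript from the start nearer the gene end at 15.2 and 12.3 FPKM in fresh nTregs and at or near 0 in naive cells.

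Among the other Treg genes, Ikzf2 had the largest log2 difference. Ikzf2 encodes Helios, an Ikaros family zinc finger factor (chromosome 1, 69531207 to 69687351), and was at 199 and 184 FPKM in fresh nTregs against 3.47 and 2.77 FPKM in naive cells (log2 difference 5.55 ± 0.07; adjusted p = 6.53e-07). Lrrc32, which encodes GARP, the surface anchor of latent TGF-beta, was at 56.6 and 59.0 FPKM in fresh nTregs and 0.901 and 0.248 FPKM in naive cells. Itgae, the integrin chain CD103 that binds E-cadherin, was at 61.3 and 44.0 FPKM in fresh nTregs and 0.570 and 0.355 FPKM in naive cells. In each of these 3 genes the lower fresh nTreg library was far above the higher naive library, which follows from picking the largest differences of the list. Nrp1, which encodes neuropilin-1, a marker of thymus-derived mouse Tregs, was at 102 and 105 FPKM in fresh nTregs against 3.64 and 3.35 FPKM in naive cells. The smallest difference of the list was in Tgfb1, which encodes TGF-beta1, at 28.4 and 25.7 FPKM in fresh nTregs and 19.1 and 19.0 FPKM in naive cells (log2 difference 0.48).

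The Ikaros family did not move together (Ikzf1 and Ikzf5 were added after their values were seen). Besides Ikzf2, Ikzf4 (Eos, a partner of Foxp3 in gene repression) was called higher at 11.8 and 12.97 FPKM in fresh nTregs against 1.48 and 1.25 FPKM in naive cells. Ikzf3 (Aiolos) was called higher at 46.6 and 47.4 FPKM in fresh nTregs against 20.1 and 21.1 FPKM in naive cells. Ikzf1 (Ikaros itself) was called lower at 95.9 and 93.2 FPKM in fresh nTregs against 176 and 158 FPKM in naive cells (log2 difference -0.81 ± 0.06; adjusted p = 1.30e-04). Ikzf5 was at 17.4 and 17.5 FPKM in fresh nTregs and 20.7 and 21.0 FPKM in naive cells, and its call, at a log2 difference of -0.24, was lost under most other settings. Ikaros RNA was thus lower while the 3 other called members with a Treg or lymphoid role were higher, and per length Ikzf2 was the most abundant of the family in fresh nTregs and Ikzf1 the most abundant in naive cells.

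Of 32 tested transcription factors with a known part in Tregs or their activation, 24 were called higher and 2 lower, with a median log2 difference of 1.05. Bhlhe40, a basic helix-loop-helix repressor, was at 132 and 131 FPKM in fresh nTregs against 4.54 and 4.27 FPKM in naive cells (log2 difference 4.62 ± 0.07; adjusted p = 6.94e-07). Hopx, an atypical homeodomain protein, was at 76.3 and 72.4 FPKM in fresh nTregs and 4.20 and 5.603 FPKM in naive cells. Both genes were separated between the populations by more than 10 times their SE, which their choice for large called differences favours. Maf, Rora, Nfil3 and Prdm1 (Blimp-1) were also among the genes called higher. The 2 factors called lower were Satb1, a chromatin organiser, at 54.7 and 63.5 FPKM in fresh nTregs and 179 and 183 FPKM in naive cells, and Bach2, a repressor of effector genes, at 10.2 and 14.8 FPKM in fresh nTregs and 16.7 and 19.5 FPKM in naive cells. The 6 factors not called were Cbfb, Foxo1, Foxo3, Id2, Runx3 and Stat5b. Foxo1, for one, was at 49.1 and 50.8 FPKM in fresh nTregs and 46.2 and 43.6 FPKM in naive cells.

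**Figure D3:**
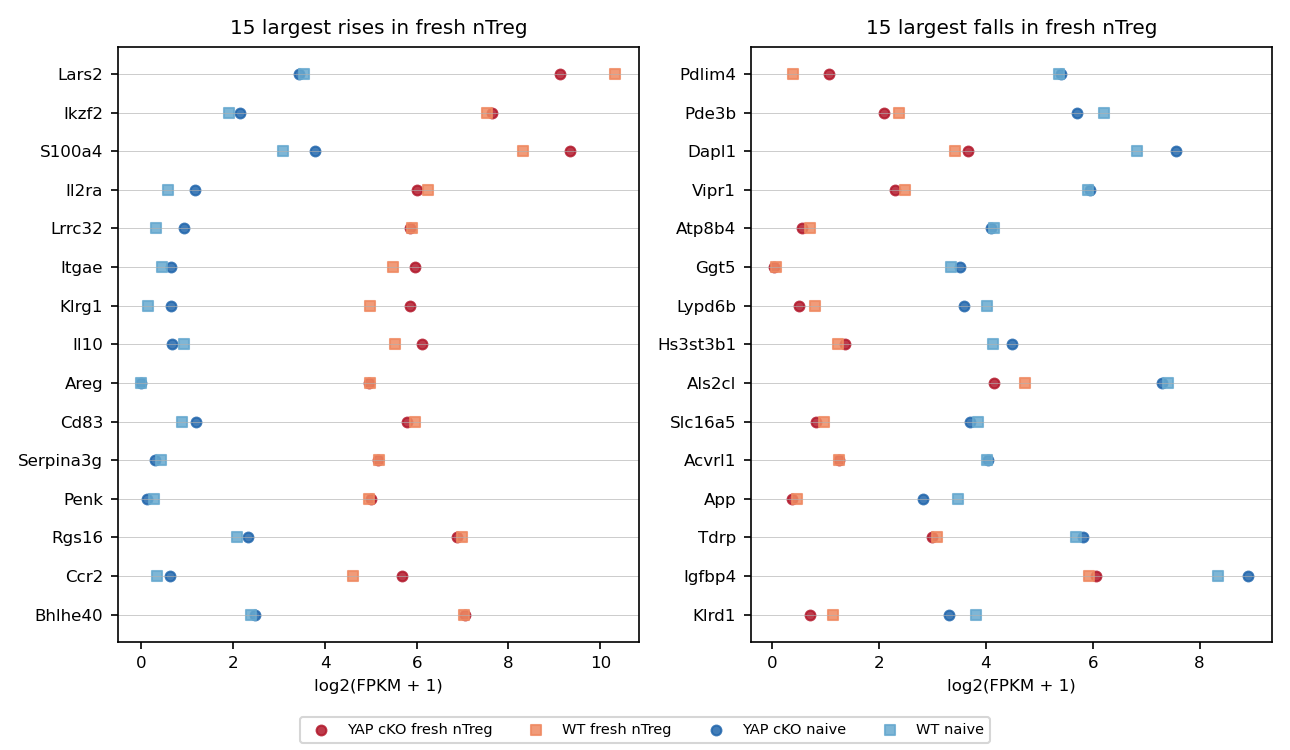
log2(FPKM + 1) in each library for the 15 largest rises (left) and the 15 largest falls (right) among called genes with at least 5 FPKM in both libraries of the higher population, leaving out small RNA genes, antigen receptor segments and predicted or unnamed genes; red and orange marks are YAP cKO and WT fresh nTregs and dark and light blue marks are YAP cKO and WT naive cells. For all 30 genes the populations are separated, and the genotypes of a population lie closer to each other than to the other population. Choosing the largest called differences favours both traits, so neither is a separate result.

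Genes of the naive and quiescent state were mostly lower in fresh nTregs. Of 33 tested, 25 were called lower, 10 of them by at least 2-fold, and 3 were called higher, with a median log2 difference of -0.61. Dapl1, a small death-associated protein-like gene expressed in naive T cells, was at 11.7 and 9.75 FPKM in fresh nTregs against 186 and 113 FPKM in naive cells (log2 difference -3.65 ± 0.11; adjusted p = 5.75e-06). Igfbp4, which encodes an insulin-like growth factor binding protein, was at 66.0 and 59.7 FPKM in fresh nTregs and 480 and 325 FPKM in naive cells. The log2 difference was wider in YAP cKO for both genes, which were picked for their large differences. Lef1 was at 69.2 and 75.3 FPKM in fresh nTregs and 224 and 229 FPKM in naive cells, and Tcf7, which encodes TCF-1, at 96.9 and 98.0 FPKM in fresh nTregs and 282 and 236 FPKM in naive cells. These core factors were thus well expressed in fresh nTregs too, at a lower level.

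Receptors and regulators of recirculation had smaller differences. Ccr7 was at 150 and 161 FPKM in fresh nTregs and 279 and 261 FPKM in naive cells, and S1pr1, the receptor for lymph node exit, at 235 and 209 FPKM in fresh nTregs and 441 and 416 FPKM in naive cells. Klf2, which drives S1pr1, was called lower at a log2 difference of -0.44. Il7r, the IL-7 receptor chain that is low on Tregs, was at 44.0 and 72.2 FPKM in fresh nTregs and 108 and 136 FPKM in naive cells, and its call was lost when the WT naive or the YAP cKO fresh nTreg library was left out. The 3 members called higher were Ccr9, a gut-homing receptor, Sorl1, a sorting receptor, and Tspan13, a tetraspanin, the last at 100 and 107 FPKM in fresh nTregs and 42.6 and 55.9 FPKM in naive cells.

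The largest falls outside these lists were in genes of varied function. Pdlim4, a PDZ and LIM domain protein (chromosome 11, 54054928 to 54069032), was at 1.09 and 0.309 FPKM in fresh nTregs against 41.3 and 40.1 FPKM in naive cells (log2 difference -4.66 ± 0.16; adjusted p = 8.27e-06), and the fresh nTreg values stood on about 10.9 and 3.26 fragments. Pde3b, a phosphodiesterase that degrades cAMP, was at 3.26 and 4.17 FPKM in fresh nTregs against 51.1 and 73.0 FPKM in naive cells. Vipr1, the receptor for vasoactive intestinal peptide, which signals through cAMP, was at 3.92 and 4.63 FPKM in fresh nTregs and 60.8 and 59.2 FPKM in naive cells. Since these 3 genes were picked as the largest falls, their separation between populations follows from the choice. Atp8b4, a lipid flippase, Slc16a5, a monocarboxylate transporter, Acvrl1, a receptor of the TGF-beta superfamily, and App, the amyloid precursor protein, were also among the 15 largest falls.

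IL-2 receptor signalling genes differed unevenly. Of 15 tested, 8 were called higher and 1 lower, with a median log2 difference of 0.32. Il2rb, the beta chain of the receptor, was at 263 and 246 FPKM in fresh nTregs against 14.5 and 11.9 FPKM in naive cells (log2 difference 4.17 ± 0.07; adjusted p = 6.94e-07), whereas Il2rg, the common gamma chain, was at 198 and 231 FPKM in fresh nTregs and 203 and 169 FPKM in naive cells and was not called. Both Cish and Socs2, feedback genes that STAT5 induces, were far apart: Cish was at 45.9 and 55.5 FPKM in fresh nTregs against 2.70 and 2.28 FPKM in naive cells, and Socs2 at 24.2 and 22.6 FPKM in fresh nTregs against 0.403 and 0.340 FPKM in naive cells. Their relatives Socs1 and Socs3 were not called, at 22.5 and 26.2 FPKM for Socs1 in fresh nTregs and 27.7 and 19.1 FPKM in naive cells. Il2 itself was below the FPKM minimum, at 0.143 and 0.135 FPKM in fresh nTregs and 0.284 and 0.167 FPKM in naive cells. The kinase Jak1, which sits on IL-2Rbeta, was the 1 member called lower, at 155 and 180 FPKM in fresh nTregs and 202 and 229 FPKM in naive cells.

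Costimulatory and inhibitory receptors and ligands were mostly higher. The list of the TNF receptor and CD28 families also holds ligands, such as Lta, Tnf and Tnfsf11, which were called higher. On this list, 19 of 26 tested genes were called higher and 3 lower. Of 17 checkpoint receptors and ligands tested, 15 were called higher and 1 lower. Ctla4, which takes CD80 and CD86 from other cells, was at 604 and 663 FPKM in fresh nTregs against 34.7 and 42.2 FPKM in naive cells (log2 difference 4.01 ± 0.06; adjusted p = 6.94e-07). Tnfrsf4 (OX40) was at 149 and 140 FPKM in fresh nTregs and 9.37 and 7.77 FPKM in naive cells, and Tnfrsf9 (4-1BB) at 46.0 and 56.4 FPKM in fresh nTregs and 2.53 and 2.73 FPKM in naive cells. Pdcd1 (PD-1) was at 27.7 and 34.3 FPKM in fresh nTregs against 1.62 and 1.99 FPKM in naive cells. The ectoenzymes that turn extracellular ATP into adenosine were both called higher, with Entpd1 (CD39) at 9.76 and 10.7 FPKM in fresh nTregs and 0.190 and 0.193 FPKM in naive cells and Nt5e (CD73) at 135 and 145 FPKM in fresh nTregs and 12.9 and 15.5 FPKM in naive cells. CD28 itself differed little, at 140 and 144 FPKM in fresh nTregs and 121 and 124 FPKM in naive cells.

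The 3 genes of the TNF receptor and CD28 list called lower were the ligands Cd40lg and Fasl and the receptor Tnfrsf1a. Cd40lg, the ligand by which helper T cells license B cells, was called lower at 5.83 and 8.51 FPKM in fresh nTregs against 24.5 and 25.1 FPKM in naive cells (log2 difference -1.68). Tnfrsf1a, the first TNF receptor, was called lower at 6.99 and 7.49 FPKM in fresh nTregs and 14.1 and 15.6 FPKM in naive cells, while Tnfrsf1b, the second TNF receptor, was called higher at 58.1 and 56.4 FPKM in fresh nTregs and 7.71 and 7.45 FPKM in naive cells. The TNF receptors thus stood in opposite order in the populations: Tnfrsf1b was the more abundant per length in fresh nTregs and Tnfrsf1a in naive cells. Vsir (VISTA) was the 1 checkpoint gene called lower, and Btla was not called.

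The T cell receptor (TCR) complex and its proximal kinases and adaptors did not follow one direction. Of 31 tested, 8 were called higher and 14 lower, against 20.9% higher and 23.1% lower over all genes tested. The median log2 difference was -0.15 and turned to 0.05 with equal FPKM sums, and 1 gene passed 2-fold. That gene was Themis, an adaptor of TCR signalling in thymocytes and T cells, at 28.6 and 35.1 FPKM in fresh nTregs and 85.9 and 92.1 FPKM in naive cells. Cd3e was called higher at 78.6 and 96.6 FPKM in fresh nTregs and 49.6 and 43.4 FPKM in naive cells, while Cd3d and Cd3g were not called. Cd5, a negative regulator whose surface level tracks TCR signal strength, was called higher at 265 and 234 FPKM in fresh nTregs and 182 and 172 FPKM in naive cells, and Dgka, which removes diacylglycerol, was called lower at 289 and 286 FPKM in fresh nTregs and 490 and 443 FPKM in naive cells.

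Of 19 tested genes on the list of NR4A, EGR and AP-1 factors, many of which TCR signalling is known to induce, 14 were called higher and 3 lower (Fosl2, Ier2 and Jund), and Jun and Junb were not called. Nr4a2 was at 29.3 and 28.2 FPKM in fresh nTregs and 4.91 and 6.07 FPKM in naive cells (log2 difference 2.20 ± 0.11; adjusted p = 2.94e-05), and Egr2 at 16.4 and 11.7 FPKM in fresh nTregs and 5.53 and 4.31 FPKM in naive cells. Nr4a1 (Nur77) had a smaller difference, at 195 and 189 FPKM in fresh nTregs and 123 and 97.3 FPKM in naive cells. Feedback genes of the same signals included Dusp4, a phosphatase of MAP kinases, at 138 and 126 FPKM in fresh nTregs and 13.4 and 10.3 FPKM in naive cells, and Rgs1, a brake on chemokine receptor signalling, at 1039 and 1309 FPKM in fresh nTregs and 170 and 163 FPKM in naive cells. Of the 13 tested DUSP, Sprouty and RGS genes, 8 were called higher and 2 lower. In the NF-kappaB list 13 of 16 were called higher, 2 of them past 2-fold (Icam1 and Traf1), and the other 3 were not called. The call of Traf1 was lost without either fresh nTreg library and that of Icam1 without the YAP cKO one. Rela, one of these, was at 32.7 and 33.8 FPKM in fresh nTregs and 33.2 and 34.8 FPKM in naive cells.

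Beside these groups stand genes that respond to tissue handling. Of 18 tested heat shock and sorting stress genes, 6 were called higher and 5 lower, against 20.9% and 23.1% over all genes tested. The median log2 difference was -0.07 and turned positive with equal FPKM sums. Dusp1 was at 461 and 366 FPKM in fresh nTregs and 151 and 119 FPKM in naive cells, and Zfp36 at 278 and 241 FPKM in fresh nTregs and 110 and 70.9 FPKM in naive cells, whereas Dnajb1 and Hsph1 were called lower and Jun was not called. The part of handling in the NR4A, EGR and AP-1 values was not tested.

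**Figure D4:**
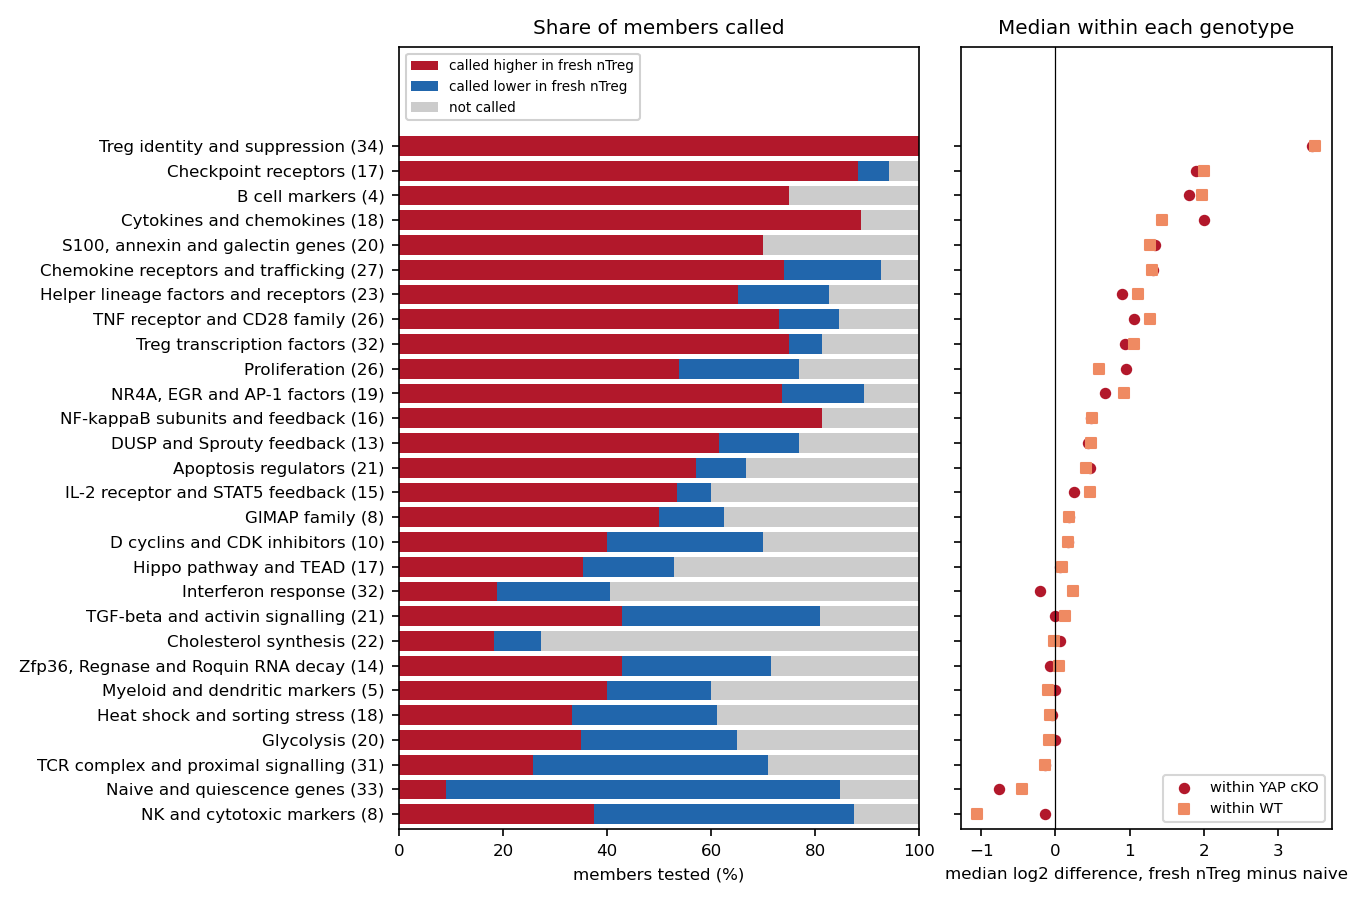
Left, the share of tested members of each list (number in brackets) called higher (red), called lower (blue) or not called (grey) in fresh nTregs; right, the median log2 difference, fresh nTreg minus naive, within YAP cKO (circles) and within WT (squares), for lists with at least 4 tested members. Over all genes tested, 20.9% were called higher and 23.1% lower. In the shares called, the Treg list (34 of 34 called higher) and the naive list (25 of 33 called lower) lie farthest from that background in opposite directions. The lowest median within YAP cKO is that of the naive list, at -0.755, and within WT that of the NK and cytotoxic list (8 tested), at -1.051.

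Of 28 genes on the list of cytokines and chemokines, 18 passed the FPKM minimum and 16 of them were called higher in fresh nTregs. Il16 and Ltb, at 82.1 and 77.4 FPKM for Il16 in fresh nTregs and 87.5 and 88.2 FPKM in naive cells, were not called, and the other 10, among them Il2, Il13, Il17a, Il21, Il22 and Il9, stayed below 1 FPKM in at least 3 libraries. A gene that passed because of its fresh nTreg values alone had to differ, so the count is a description. Il10, the suppressive cytokine, was at 67.9 and 45.0 FPKM in fresh nTregs against 0.580 and 0.913 FPKM in naive cells (log2 difference 5.02 ± 0.20; adjusted p = 1.29e-05). Areg, which encodes amphiregulin, a growth factor known for tissue repair by Tregs (chromosome 5, 91139599 to 91148432), was at 30.2 and 30.6 FPKM in fresh nTregs and listed at 0 in both naive libraries. Against 3 fragments in the naive library of the same genotype, Areg was at least 104-fold higher in YAP cKO and at least 89.1-fold higher in WT. In the Areg sequence above, TATAAA begins 31 bases and TGACGTCA 61 bases before the start. Penk, the enkephalin precursor, was at 31.1 and 30.1 FPKM in fresh nTregs and 0.0884 and 0.209 FPKM in naive cells, and Ebi3, a chain of interleukin-35, at 6.40 and 8.25 FPKM in fresh nTregs and 0.220 and 0.130 FPKM in naive cells. Il12a, the other chain of interleukin-35, was listed at 0 in all 4 libraries.

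Among effector genes, Ifng was at 33.2 and 17.7 FPKM in fresh nTregs and 0.954 and 1.501 FPKM in naive cells, and its lineage factor Tbx21 at 6.74 and 2.71 FPKM in fresh nTregs and 0.598 and 0.707 FPKM in naive cells. Both genes were called higher, and the YAP cKO library was the higher of the fresh nTreg pair. Il1rl1 (ST2, the receptor of interleukin-33) was at 25.2 and 18.0 FPKM in fresh nTregs and 0.380 and 0.0528 FPKM in naive cells, and Il1r2, a decoy receptor of interleukin-1, at 31.4 and 18.4 FPKM in fresh nTregs and 0 and 0.221 FPKM in naive cells. Of 23 tested helper lineage factors and receptors, 15 were called higher and 4 lower; the lower ones were Eomes, Ifngr2, Il21r and Il4ra, and the Eomes call was lost without the WT naive library or either fresh nTreg library. Il4ra was at 67.1 and 73.9 FPKM in fresh nTregs and 128 and 124 FPKM in naive cells. Stat3 and Stat6 were not called. Because the nTreg gate took cells with and without the further sort marker and the naive gate only those with it, Treg identity and an effector-like state cannot be told apart for these genes. Cd44, a marker of antigen-experienced cells, was at 37.9 and 39.5 FPKM in fresh nTregs and 4.97 and 7.89 FPKM in naive cells.

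Chemokine receptors and adhesion molecules were mostly higher, with 20 of 27 tested called higher and 5 lower. Ccr2 was at 50.2 and 23.4 FPKM in fresh nTregs and 0.545 and 0.265 FPKM in naive cells (log2 difference 4.66 ± 0.19; adjusted p = 1.51e-05), and Cxcr3, which guides cells to type 1 inflammation, at 40.2 and 24.5 FPKM in fresh nTregs and 1.45 and 1.17 FPKM in naive cells. Ccr6, Ccr4 and Ccr8 were called higher too, Ccr6 at 12.5 and 10.96 FPKM in fresh nTregs and 0 and 0.123 FPKM in naive cells. Among the genes called lower were Ccr7, Gpr183, S1pr1 and S1pr4, all of them known for movement through lymphoid tissue. Gpr183 (EBI2, the receptor for oxysterols) was at 40.3 and 51.2 FPKM in fresh nTregs and 98.6 and 116 FPKM in naive cells.

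The list of S100, annexin and galectin genes also holds Ahnak, Capg, Crip1 and Vim, which are of none of these families. Of its 20 tested genes, 14 were called higher, among them Ahnak, Capg, Crip1 and Vim, and the other 6 were not called. S100a4 was at 647 and 319 FPKM in fresh nTregs and 12.8 and 7.54 FPKM in naive cells (log2 difference 5.39 ± 0.09; adjusted p = 6.94e-07), S100a6 at 144 and 99.5 FPKM in fresh nTregs and 5.43 and 8.53 FPKM in naive cells, and Ahnak, a giant scaffold protein, at 247 and 169 FPKM in fresh nTregs and 20.5 and 15.9 FPKM in naive cells. S100a8 and S100a9, which neutrophils and monocytes express strongly, were listed at 0 in all 4 libraries.

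TGF-beta and activin signalling genes went in both directions. Of 21 tested, 9 were called higher and 8 lower. Besides Lrrc32, Itgb8, the integrin chain that releases active TGF-beta, was at 12.7 and 14.2 FPKM in fresh nTregs and 0.1498 and 0.0443 FPKM in naive cells (log2 difference 3.72 ± 0.14; adjusted p = 1.24e-05). Of the receptors, Tgfbr1 was called higher at 56.3 and 48.9 FPKM in fresh nTregs and 19.3 and 17.8 FPKM in naive cells, while Tgfbr2 was called lower at 61.7 and 70.9 FPKM in fresh nTregs and 142 and 135 FPKM in naive cells. Tgfbr3, the co-receptor betaglycan, was called lower at 4.83 and 5.87 FPKM in fresh nTregs and 28.6 and 29.2 FPKM in naive cells. Smad7, the inhibitory SMAD, was called lower at 59.2 and 61.1 FPKM in fresh nTregs and 128 and 127 FPKM in naive cells. Both signalling receptors were thus unequal between the populations in opposite directions, in both genotypes.

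In the Hippo pathway, which restrains YAP, differences were small: of 17 tested, 6 were called higher and 3 lower, all by less than 2-fold. Over all genes tested, 20.9% were called higher and 23.1% lower. Stk3 (MST2) was called higher at 5.17 and 7.31 FPKM in fresh nTregs and 2.60 and 3.83 FPKM in naive cells, and Stk4 (MST1), the more abundant of these kinases per length, was called lower at 123 and 128 FPKM in fresh nTregs and 163 and 165 FPKM in naive cells. The Stk3 call was lost without the YAP cKO naive library or either fresh nTreg library. Nf2 (merlin) was called higher at 20.7 and 23.5 FPKM in fresh nTregs and 13.95 and 12.5 FPKM in naive cells. The TEAD factors and Wwtr1 (TAZ), the relative of YAP, stayed under 0.75 FPKM in all 4 libraries.

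Regulators of cell survival and division were partly higher. Of 21 tested apoptosis regulators, 12 were called higher and 2 lower. The BCL-2 relative A1 is encoded by near-identical mouse copies, so the values of Bcl2a1b (138 and 123 FPKM in fresh nTregs, 18.0 and 22.8 FPKM in naive cells) and Bcl2a1d (41.0 and 36.6 FPKM in fresh nTregs, 2.64 and 5.19 FPKM in naive cells) are uncertain one by one. Pmaip1 (NOXA) was at 50.6 and 39.2 FPKM in fresh nTregs and 6.00 and 3.86 FPKM in naive cells, while Bbc3 (PUMA) was called lower at 5.36 and 5.65 FPKM in fresh nTregs and 14.5 and 11.6 FPKM in naive cells. Bcl2l11 (BIM) was not called. Of 26 tested proliferation genes, 14 were called higher and 6 lower: Mki67 was at 15.9 and 11.2 FPKM in fresh nTregs and 2.48 and 1.59 FPKM in naive cells, while Pcna was called lower at 234 and 231 FPKM in fresh nTregs and 257 and 299 FPKM in naive cells. Several genes of mitosis that were called higher lay at low levels, among them Ccnb2 at 4.99 and 4.34 FPKM in fresh nTregs and 1.28 and 0.946 FPKM in naive cells. Of 10 tested D cyclins, CDKs and CDK inhibitors, 4 were called higher and 3 lower, against 20.9% and 23.1% over all genes tested. Cdk6 was called higher, at 15.4 and 16.2 FPKM in fresh nTregs and 4.77 and 3.77 FPKM in naive cells.

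Metabolic and interferon genes showed no common direction. Of 20 tested glycolysis genes, 7 were called higher and 6 lower, against 20.9% and 23.1% over all genes tested. Hk2 (hexokinase 2) was at 3.31 and 2.85 FPKM in fresh nTregs and 0.328 and 0.291 FPKM in naive cells. Pdk1, which keeps pyruvate from oxidation in mitochondria, was called lower at 18.5 and 29.1 FPKM in fresh nTregs and 51.1 and 94.2 FPKM in naive cells. The Pdk1 call was lost without the YAP cKO fresh nTreg library. Of 22 cholesterol synthesis genes, 4 were called higher and 2 lower. Of 32 interferon response genes, 6 were called higher and 7 lower, and the median log2 difference was -0.21 within YAP cKO and 0.24 within WT. In the cholesterol and interferon lists the shares called were no larger than the 20.9% higher and 23.1% lower over all genes tested. Isg15, for example, was at 22.4 and 15.5 FPKM in fresh nTregs and 23.9 and 11.3 FPKM in naive cells and was not called. Among those called, Gbp3 was higher at 57.1 and 51.6 FPKM in fresh nTregs and 10.9 and 7.35 FPKM in naive cells, and Oas2 lower at 3.84 and 3.88 FPKM in fresh nTregs and 17.5 and 11.6 FPKM in naive cells.

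Regulators of RNA decay and lymphocyte GTPases also divided by member. Zfp36, Regnase and Roquin proteins shorten the life of immune transcripts, and their list also holds Arid5a, Btg1, Btg2, Cnot1, Tob1 and Tob2. Of its 14 genes, 6 were called higher and 4 lower, the lower ones being Arid5a, Btg1, Tob1 and Zfp36l2. Over all genes tested, the shares were 20.9% higher and 23.1% lower. Zc3h12c, a Regnase, was at 6.24 and 5.18 FPKM in fresh nTregs and 0.294 and 0.109 FPKM in naive cells, and Zfp36l1 at 103 and 102 FPKM in fresh nTregs and 54.6 and 46.6 FPKM in naive cells, whereas Zfp36l2 was called lower and Zc3h12a (Regnase-1) was not called. The 8 GIMAP genes, GTPases clustered on chromosome 6 that support lymphocyte survival, held 4 called higher and 1 lower, a small list to set against those shares. Gimap7 was at 93.8 and 114 FPKM in fresh nTregs and 27.4 and 43.1 FPKM in naive cells (log2 difference 1.56 ± 0.09), and Gimap6 was called lower at 688 and 739 FPKM in fresh nTregs and 954 and 1068 FPKM in naive cells. Gimap1, Gimap3 and Gimap5 were called higher by under 0.4 on the log2 scale, and Gimap4, Gimap8 and Gimap9 were not called. Leaving out the YAP cKO fresh nTreg library ended the calls of Gimap1, Gimap3, Gimap5 and Gimap6, and leaving out the WT fresh nTreg or the YAP cKO naive library those of Gimap1, Gimap3 and Gimap5, as leaving out WT naive did for Gimap1 and Gimap3.

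The largest log2 difference of all named genes was in Lars2, the mitochondrial leucyl-tRNA synthetase (chromosome 9, 123366927 to 123462675), at 555 and 1286 FPKM in fresh nTregs against 9.74 and 10.7 FPKM in naive cells (log2 difference 6.24 ± 0.22; adjusted p = 8.66e-06). Rn45s, the ribosomal RNA precursor, was at 2799 and 4225 FPKM in fresh nTregs and 2279 and 2058 FPKM in naive cells, and was highest in the same library as Lars2. The part of ribosomal RNA left after depletion in the Lars2 value was not tested. Serpina3g, a protease inhibitor of T cells from a cluster of similar genes, so that its own value is uncertain, was at 34.4 and 35.3 FPKM in fresh nTregs and 0.237 and 0.350 FPKM in naive cells. Klrg1, an inhibitory receptor of differentiated cells, was at 56.4 and 30.5 FPKM in fresh nTregs and 0.552 and 0.109 FPKM in naive cells, and Cd83 at 54.0 and 61.5 FPKM in fresh nTregs and 1.28 and 0.857 FPKM in naive cells.

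Estimated transcript shares differed between the populations in few genes. Of 2082 genes with several transcripts and at least 5 FPKM in each library, 13 (0.624%) moved at least 30 percentage points of their FPKM to or from a transcript in both genotypes. The largest was Serpinb6a, a protease inhibitor on the minus strand of chromosome 13. Its transcript from the distal start at 34002794 was at 7.37 and 10.98 FPKM in fresh nTregs and 12.7 and 12.1 FPKM in naive cells, and its transcript from the start at 33936198, 66596 bases nearer the gene end, was at 15.2 and 12.3 FPKM in fresh nTregs and listed at or near 0 in both naive libraries. Ppp1r18, Rbpj (the DNA-binding factor of Notch signalling), Men1 (menin), Rffl, Cyria, Zmym5, Capg, Tmem184b and Dis3l followed. These shares are estimates of the same model as for Foxp3, with no test. In some of these genes they differed as widely between the genotypes of a population. The Tmem184b transcript starting at 79403569 held 71.3% and 27.3% in fresh nTregs and 52.8% and 0.0242% in naive cells. The Men1 transcript starting at 6334979 held 40.6% and 0.00924% in fresh nTregs. For Serpinb6a, the distal start held 32.7% and 46.5% in fresh nTregs and 100% in both naive libraries.

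Markers of other cell types were summed over each list. The summed level of 12 measured B cell markers was 42.3 and 50.8 FPKM in fresh nTregs, against 8.01 and 8.94 FPKM in naive cells. Ms4a1, Pax5, Ebf1 and Blnk were under 0.2 FPKM in all 4 libraries. Cd79a was at 0.859 and 0.722 FPKM in fresh nTregs and 1.33 and 0.785 FPKM in naive cells. Cd22 was called higher, at 1.51 and 1.91 FPKM in fresh nTregs and 0.0576 and 0.163 FPKM in naive cells. The sums came mainly from Cd74 (26.0 and 30.6 FPKM in fresh nTregs, 4.26 and 4.14 FPKM in naive cells) and Cd79b (11.2 and 12.0 FPKM in fresh nTregs, 0.428 and 0.883 FPKM in naive cells). The 15 myeloid and dendritic markers summed to 57.9 and 55.5 FPKM in fresh nTregs and 36.9 and 40.9 FPKM in naive cells, mostly Cst3, with Adgre1, Cd14, Flt3, Itgax and Siglech under 0.2 FPKM throughout. Cst3 and Lyz2 (1.12 and 3.78 FPKM in fresh nTregs, 0.372 and 2.78 FPKM in naive cells) were called higher and Itgam lower. The Lyz2 and Itgam calls were lost with any 1 library left out. Cd68 (2.86 and 2.41 FPKM in fresh nTregs, 2.88 and 2.65 FPKM in naive cells) and Tyrobp were not called. The 12 NK and cytotoxic markers summed to 88.9 and 43.3 FPKM in fresh nTregs and 42.7 and 57.2 FPKM in naive cells, from different genes: Gzmb and Nkg7 were called higher, while Klrd1 (0.638 and 1.21 FPKM in fresh nTregs, 8.86 and 13.1 FPKM in naive cells) and Prf1 (1.75 and 1.99 FPKM in fresh nTregs, 9.49 and 11.6 FPKM in naive cells) were called lower. Cd8b1 was at 5.58 and 5.36 FPKM in fresh nTregs and 8.90 and 8.01 FPKM in naive cells, with Cd8a under 0.2 FPKM, and its call as lower was lost without the YAP cKO naive or either fresh nTreg library. The 8 stromal and endothelial markers summed to 52.9 and 53.3 FPKM in fresh nTregs and 79.3 and 71.0 FPKM in naive cells, nearly all of it Pecam1, which T cells also express, at 52.5 and 53.1 FPKM in fresh nTregs and 79.1 and 70.9 FPKM in naive cells. The other 7 were under 0.2 FPKM in all 4 libraries. The 4 measured genes on the gamma-delta and NKT list summed to 23.1 and 24.1 FPKM in fresh nTregs and 21.3 and 24.7 FPKM in naive cells. Nearly all of this was Cd1d1, at 22.98 and 23.77 FPKM in fresh nTregs and 21.31 and 24.55 FPKM in naive cells, which was not called. Sox13 and Zbtb16 were under 0.2 FPKM throughout. The 9 erythroid and platelet markers summed to 3.64 and 2.87 FPKM in fresh nTregs and 2.06 and 0.98 FPKM in naive cells. The part of other cell types in the differences of these genes was not tested.

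The YAP cKO and WT pairs gave similar differences. Across the 10782 genes the difference within YAP cKO and that within WT had a Pearson r of 0.83, as a description over genes that share libraries within a pair, and the median absolute gap between them was 0.14 on the log2 scale. Among called genes the gaps were largest in Snora65, Snhg9, Gzmb, Hmgn3 and Ccl4. Gzmb, a cytotoxic protease that Tregs also use, was at 42.9 and 9.80 FPKM in fresh nTregs against 0.353 and 0 FPKM in naive cells, so that both genotypes had it higher in fresh nTregs and the YAP cKO library by more. Hmgn3, a nucleosome-binding protein, was at 1.86 and 8.85 FPKM in fresh nTregs and 0.472 and 0.722 FPKM in naive cells. The small nucleolar RNA Snora65 was at 0 and 147 FPKM in fresh nTregs and 113 and 324 FPKM in naive cells. With 1 library per genotype and population these gaps have no replicate check and were not tested, and the calls of Snora65, Snhg9, Hmgn3 and Ccl4 were lost under several other settings.

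**Figure D5:**
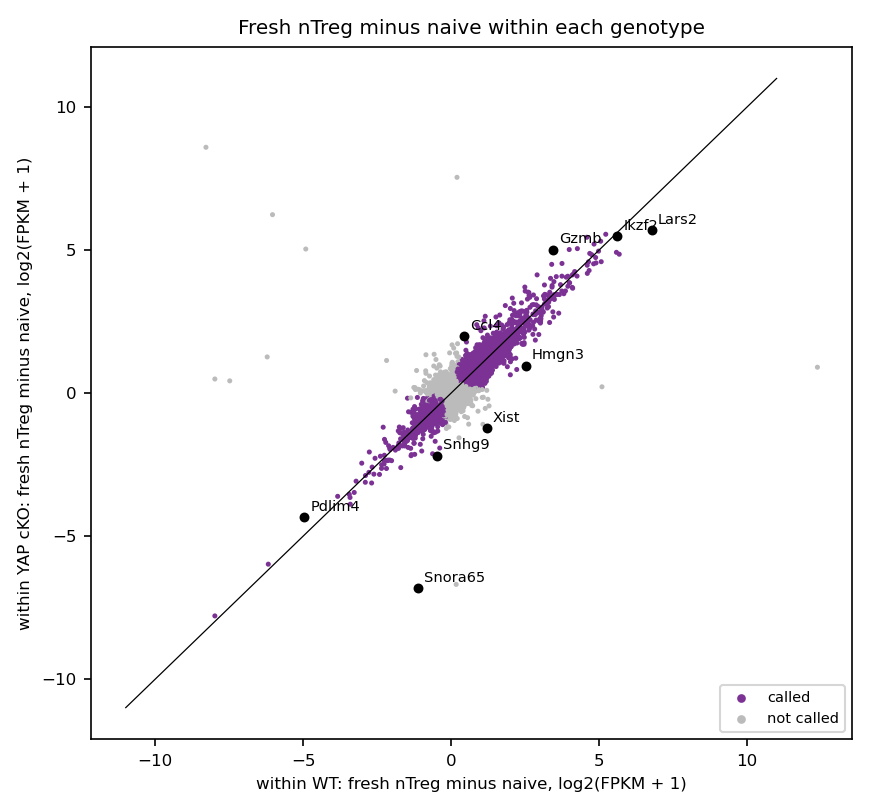
Difference of log2(FPKM + 1), fresh nTreg minus naive, within YAP cKO (vertical axis) against the same within WT (horizontal axis) for the 10782 genes tested; purple genes are called, grey genes are not, and the line marks equal differences. The called genes lie along the line, which the fit favours, since the gap between the genotypes is its residual, and the named genes off it are Snora65, Snhg9, Gzmb, Hmgn3 and Ccl4 among those called and Xist among those not called.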

How the data were processed

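Strand-specific total RNA libraries were made after removal of ribosomal RNA, per the labels' protocols. The authors deposited FPKM for each RefSeq transcript, made with FastQC, TopHat, Cuffdiff and Cuffnorm on mm10, per the submitters' processing notes, with no versions given. A count model cannot be fitted to FPKM, and whether counting used strand is not given in the sources used here.

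The table held 32860 rows for 32547 transcripts, and the 165 listed more than once had identical values and were kept once. RefSeq accessions named 32101 transcripts through the GRCm38.p6 table and the deposited symbol a further 397, while 49 had no symbol. FPKM was summed per gene (24011 genes). Genes with at least 1 FPKM in at least 2 of the 4 libraries were tested on log2(FPKM + 1), which understates the fold of low genes. The test was limma 3.58.1 (R 4.3.3) with an intensity trend and terms for population and genotype, with 1 residual and 5.39 prior degrees of freedom and Benjamini-Hochberg adjustment. The pairing by genotype is the genotype term. The genotype difference in fresh nTregs and that in naive cells had a Pearson r of 0.29 over genes. With 1 library per genotype and population, samples are not stated to be separate mice, so p-values measure spread between libraries.

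Named genes are the sort and genotype checks, the 4 called members of each list with the largest difference, the 15 largest rises and falls (leaving out small RNA genes, antigen receptor segments and predicted or unnamed genes), the 5 largest gaps between genotypes, the 10 largest transcript shifts and members that were not called. Other list members in the text were picked for their role after their values were seen. The comparison and the 32 gene lists were chosen with earlier results of these data known, and lists share members. A few genes that enter the fit and the counts are not reported here. Alternatives changed the pseudocount, the FPKM minimum, the scaling, the model, the libraries and the way transcripts were combined.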

Additional observations from a re-analysis of the deposited data

Results flagged for a closer look

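Xist, the RNA that coats the inactive X chromosome, differed in opposite directions in the 2 genotypes: it was at 3.21 FPKM in YAP cKO and 30.0 FPKM in WT fresh nTregs, against 8.76 FPKM in YAP cKO and 12.5 FPKM in WT naive cells. The gap between the genotypes' log2 differences was -2.42, and the difference between genotypes was not tested, since each has 1 library per population. Gzma, which encodes granzyme A, was at 1.57 FPKM in YAP cKO and 1.48 FPKM in WT fresh nTregs, against 1.24 FPKM in YAP cKO and 4.96 FPKM in WT naive cells. Its gap was 1.46 on the log2 scale and was not tested either. In the stimulated nTreg libraries, which the comparison does not use, Yap1 was at 0.235 FPKM in YAP cKO and 0.169 FPKM in WT, while it was listed at 0 in the fresh nTreg and naive libraries.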

How the results depend on the processing

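With equal FPKM sums, 3737 genes were called higher and 1160 lower, against 2255 and 2491 as deposited. With no FPKM minimum, 1608 were called lower. Leaving out 1 library in turn gave 1046 to 1400 genes higher and 787 to 1093 lower, since fewer libraries enter the fit and the lone library is assumed to vary like the others. Calls of at least 2-fold numbered 305 higher and 82 lower with a pseudocount of 5, against 759 and 168, because that scale shrinks low genes. They numbered 289 lower with a pseudocount of 0.1 and 464 higher with an FPKM minimum of 5. Without the genotype term (no replicate block), 1856 genes were called higher and 1949 lower. Of 137 called genes chosen by the naming rule, 103 kept their call under every setting in which they were tested, but only 126 of the 137 were tested with an FPKM minimum of 5 and 136 with the highest transcript. Those that lost it under 1 or more settings include Cd4, Il7r, Cd8b1, Lyz2, Hspa1a, Stk3, Frmd6, Traf1, Icam1, Nfkbia, Pdk1, Oas1a, Oasl2, Eomes, Cdkn2c, Cdkn2d, Ikzf5, Rn45s, Gimap1, Gimap3, Gimap5 and Gimap6. Lyz2 and Hspa1a, which were called, and several genes that were not called changed sign. With equal sums Cd68 was at 0.093 on the log2 scale, Gimap9 at 0.145 and Xist at 0.173. With the highest transcript Gimap8 was at -0.026, and Xist was at 0.128 with a pseudocount of 5 and 0.027 with median ratio scaling. Leaving out 1 library in turn gave the ranges -0.068 to 0.127 for Cd1d1, -0.141 to 0.035 for Cd68, -0.038 to 0.077 for Gimap8, -1.238 to 0.170 for Gzma, -0.011 to 1.051 for H2-Aa, -0.130 to 1.128 for Hspa1a, -0.248 to 1.215 for Lyz2 and -1.446 to 1.435 for Xist. The cause was not tested. Depth limits genes near 0, such as Areg in naive cells, where 3 fragments are worth 0.289 to 0.343 FPKM.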
